A study of Xenopus laevis with 14 samples.

Results

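The nuclear genes of the mitochondrial respiratory chain and the ATP synthase were examined in Xenopus laevis anterior endoderm that had been made to carry extra Ptf1a. They were taken by symbol, with the copy suffix dropped: every gene beginning with nduf, uqcr or atp5, with sdh followed by a, b, c or d, or with cox followed by 4, 5, 6, 7 or 8, together with cyc1 and cycs. The rule reads symbols only, but it was chosen with earlier results of these data known. It found 87 genes at each stage, out of 9260 named genes at stage NF32 and 9594 at NF36. These 87 genes stand for 63 gene names, because this species keeps a .L and a .S copy of many genes, and 44 of them were .L copies and 43 .S copies. Each gene was read by the brightest of its probe sets, which was the same probe set at both stages for all 87.

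The respiratory chain passes electrons from food molecules to oxygen in the inner mitochondrial membrane. Complex I takes them from NADH and complex II from succinate. Complex III hands them to the mobile carrier cytochrome c, complex IV passes them to oxygen, and the protons pumped along the way drive the ATP synthase. A few subunits are encoded in mitochondrial DNA and all the others in the nucleus, so most of the chain is built from transcripts like those measured here.

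GFP embryos had 400 pg of GFP mRNA injected, at the 8-cell stage, into both dorsal vegetal blastomeres. Ptf1a embryos had the same dose of GFP mRNA plus 800 pg of mRNA for Ptf1a, a transcription factor of exocrine pancreas and inhibitory neurons, so the total mRNA dose also differed between the groups. Anterior endoderm of about 15 embryos was pooled for each RNA sample, with 3 samples per group at NF32 and 4 per group at NF36, each hybridised to its own array. GFP and Ptf1a samples with the same replicate number came from one batch of embryos, per the series description. The comparison asks what extra Ptf1a does to transcript levels at each stage.

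Values are linear probe set intensities. Array means were 140.19 to 140.36 at NF32 and 100 at NF36, so levels are not compared between stages. On the NF32 arrays 13.0% to 15.1% of probe sets read below 16, and on the NF36 arrays 25.4% to 27.5%. The ptf1a probe set read 18.3, 14.9 and 7.7 in GFP and 209.5, 386 and 347.1 in Ptf1a explants at NF32 (log2 change 3.45 ± 0.24, adjusted p = 0.00147). At NF36 it read 25.5, 33.3, 31.5 and 29.8 against 117.2, 143.1, 319.4 and 136.4 (1.98 ± 0.26, adjusted p = 0.00727). Of 18 endoderm markers measured, 11 had a GFP mean above the median probe set at NF32 and 14 at NF36. This does not set endoderm apart. At NF32 the same held for 12 of 17 epidermis, 12 of 15 heart muscle, 10 of 14 blood and 2 of 18 neuron markers.

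A change is given as the log2 difference, Ptf1a minus GFP, of intensity plus 16, with its standard error (SE). A gene was called higher or lower where limma's Benjamini-Hochberg adjusted p, taken over the whole array, was under 0.05. Adding 16 shrinks the change of a dim probe set. A fit that keeps the embryo batch as a block is given beside the main one where it alters a call, and its adjusted p is named as that of the block fit.

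Respiratory chain genes had bright readings. Percentiles are over all probe sets, while each of the 87 genes was read by its brightest, which can raise its rank. The median gene lay at the 93.6th percentile of probe set intensity at NF32 and the 95.4th at NF36, and 83 of the 87 were above the median probe set at each stage. The brightest by GFP mean was atp5f1b.S, the catalytic beta subunit of the ATP synthase, at 1871 ± 91.7 at NF32 (SD, n = 3) and 1603 ± 27.3 at NF36 (SD, n = 4). The dimmest was cox4i2.L, a copy of the complex IV isoform that in mammals is used in lung and under low oxygen, at 13.6 ± 4.91 and 8.63 ± 1.24. Different probe sets bind with different strength, so this order describes the readings and not amounts of transcript.

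At NF32 the readings of these genes leaned toward lower values in Ptf1a explants, each by a small amount. Their median change was -0.16, a difference of -10.7% on the intensity plus 16 scale, and the range was -0.51 to 0.01. Of the 87 genes, 85 had a change below 0 (97.7%), where 51.7% of all probe sets did, whose median was -0.01. None passed the threshold in either direction, against 1.2% of all probe sets called lower and 1.96% called higher. An unadjusted p under 0.05 was reached by 25 genes with a change below 0 (28.7%), where 7.61% of all probe sets did so, and by 0 genes with a change above 0. Ptf1a arrays lay wholly below GFP arrays for 37 genes (42.5%), against 11% of all probe sets. With the batch as a block, 6 genes were lower (6.90%), against 4.19% of all probe sets, and 0 were higher, against 5.03%.

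NF36 gave a similar picture. Here the median change was -0.14 (-8.99%) and the range -0.38 to 0.02. Of the 87 genes, 83 had a change below 0 (95.4%), against 49.4% of all probe sets, whose median was 0.00. The complex I genes ndufa3.L and ndufb8.L were called lower, 2 of 87 (2.30%), where 1.89% of all probe sets were called lower and 3.59% higher. None of the 87 was called higher. An unadjusted p under 0.05 came with a change below 0 for 23 genes (26.4%), against 8.61% of all probe sets, and with a change above 0 for 0 genes. The groups did not overlap, with Ptf1a lower, for 15 genes (17.2%), against 5.49% of all probe sets. In the block fit 21 genes were lower (24.1%), against 10.8% of all probe sets, and 0 were higher, against 12.6%.

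**Figure D1:**
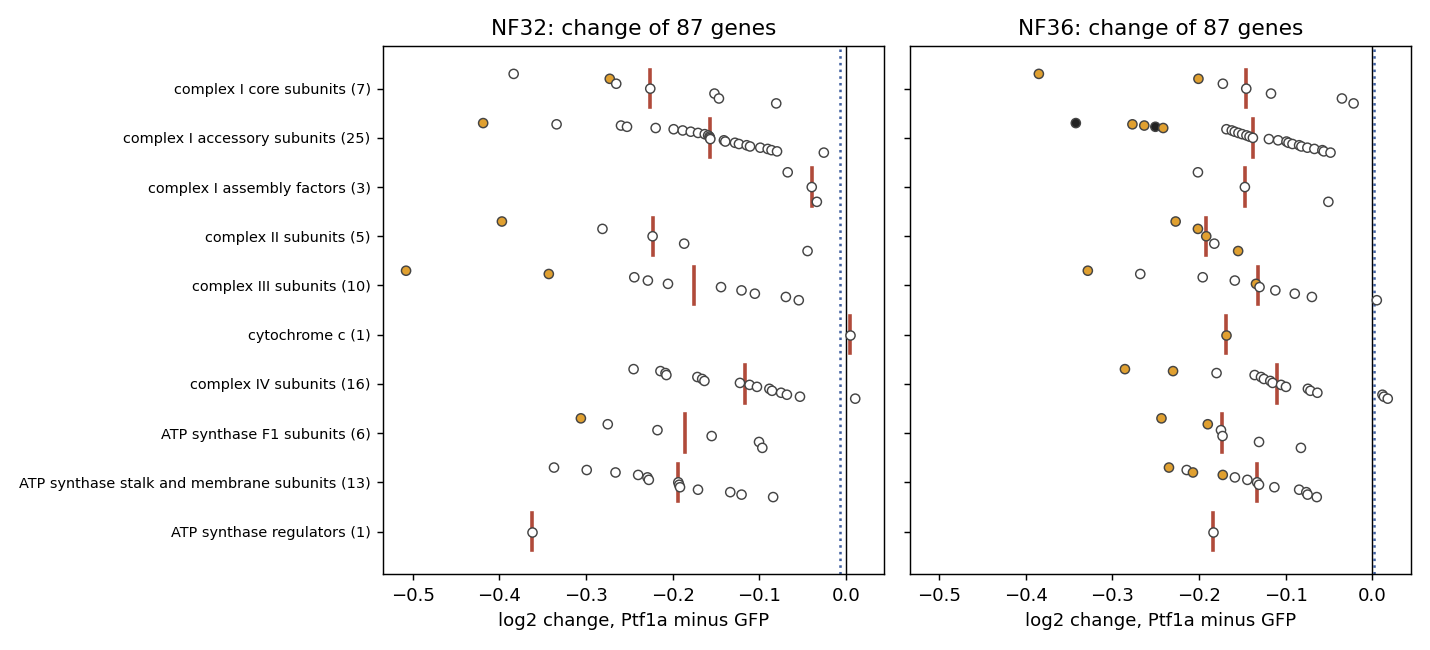
Log2 change (Ptf1a minus GFP, horizontal axis) of each of the 87 genes at NF32 (left, n = 3 arrays per group) and NF36 (right, n = 4), grouped by role with the number of genes in brackets. Black points passed the threshold, orange points passed it only with the embryo batch as a block, and white points passed neither. Red bars are the medians of the roles and the dotted line is the median of all probe sets. The median of each role lies left of 0 at both stages except that of cytochrome c at NF32.

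These are bulk samples, in which fewer cells of a type that is rich in mitochondria and less transcript per cell cannot be told apart. Values by array are given next. Taking each gene relative to its GFP mean, the median over the 87 was -0.09, 0.10 and -0.02 on the 3 GFP arrays of NF32 and -0.17, -0.15 and -0.19 on the 3 Ptf1a arrays. All 3 Ptf1a arrays were therefore below all 3 GFP arrays, with GFP replicate 2 the highest. At NF36 it was 0.00, 0.06, -0.07 and 0.01 on the GFP arrays and -0.19, -0.12, -0.08 and -0.15 on the Ptf1a arrays. Again every Ptf1a array was below every GFP array, but Ptf1a replicate 3 and GFP replicate 3 almost met.

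Within embryo batches, the pairs of NF32 had median changes of -0.08, -0.26 and -0.18, with 67, 85 and 79 of the 87 genes lower in the Ptf1a member of the pair, where 48.7%, 51.7% and 52.6% of all probe sets were. The pairs of NF36 had -0.21, -0.19, -0.01 and -0.15, with 85, 84, 46 and 85 genes lower, where 51.8%, 44.6%, 48.4% and 52.1% of all probe sets were. Pair 3 of NF36 stood apart from the other pairs of its stage. Its GFP array had the lowest respiratory median of the GFP arrays of the stage, -0.07. Its Ptf1a array had the highest ptf1a reading of the stage, 319.4. The pair had the largest median change of the epidermis markers, 1.20 against 0.59, 0.86 and 0.94. It was also highest for ionocyte markers, 0.98 against 0.37, 0.41 and 0.76. For skeletal muscle markers it was lowest, -0.34 against 1.35, 1.17 and -0.001. For endoderm markers it was highest, -0.08 against -0.13, -0.10 and -0.28. It lay within the range of the other pairs for heart muscle (0.45), blood (-0.65), liver (-0.29) and neuron markers (0.35). The part of these in the pair's respiratory gene values was not tested. Pair 3 was left out after its values were seen, so a more negative median follows from that choice. Without it, all 87 genes had a change below 0 and their median was -0.18. Of the 87, 1 gene, ndufa3.L, was called lower, where 216 of 23614 probe sets were. In all pairs of NF32, 58 genes were lower (66.7%), against 25.3% of all probe sets, and in all pairs of NF36, 44 genes (50.6%), against 21.9%.

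**Figure D2:**
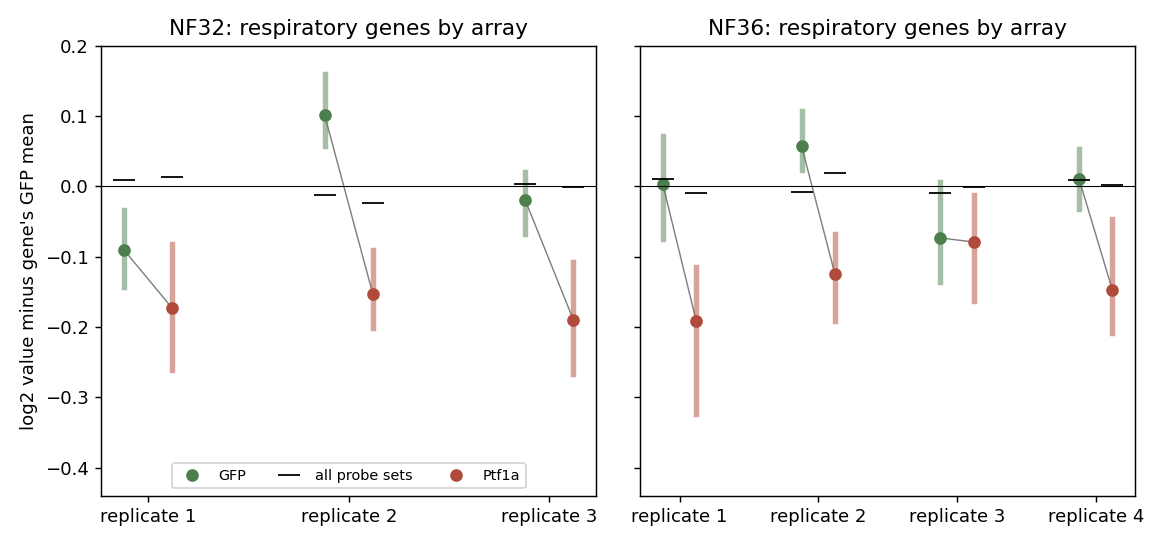
Median over the 87 genes of the log2 value on each array minus the gene's GFP mean of the stage (points), with the middle 50% of genes (bars), for GFP (green) and Ptf1a (red) arrays at NF32 and NF36. Grey lines join samples of the same embryo batch and black dashes give the median of all probe sets on that array. The line is nearly flat for replicate 3 of NF36 and falls for the other 6 pairs.

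Complex I, the NADH dehydrogenase, gave 35 of the 87 genes when grouped by symbol, and all 35 had a change below 0 at both stages. Its 7 core subunit genes, which encode parts that carry out electron transfer, had medians of -0.23 at NF32 and -0.15 at NF36. The 25 genes counted as accessory subunits, most of which build the scaffold around the core, had -0.16 and -0.14. They include both copies of ndufa4, which in mammals is assigned to complex IV. The 3 assembly factor genes had -0.04 and -0.15.

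Ndufa3.L, an accessory subunit of the membrane arm, was the gene of complex I with the most negative change at NF32. It read 309.3, 391.0 and 314.7 in GFP and 252.7, 266.7 and 225.4 in Ptf1a explants at NF32. The groups did not overlap, yet the change of -0.42 ± 0.11 missed the threshold (adjusted p = 0.118, and 0.0256 in the block fit). At NF36 the arrays read 341.9, 325.4, 296.4 and 318.5 against 255.8, 239.3, 274.7 and 229.1. Every Ptf1a value was again below every GFP value, and the gene fell by 0.34 ± 0.07 on the log2 scale (adjusted p = 0.0347, and 0.0143 in the block fit). The call for ndufa3.L at NF36 rests on the full set of arrays. When each of the 8 arrays was omitted in turn, it held 1 time, without Ptf1a replicate 3 (adjusted p = 0.0268). That fit called 481 of all probe sets lower and the others 97 to 344, against 446 with all arrays.

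Ndufb8.L, another accessory subunit of the membrane arm, read 335.8, 341.9, 307.7 and 350.9 in GFP and 277.4, 279.8, 268.3 and 286.7 in Ptf1a explants at NF36. All 4 Ptf1a arrays were lower than the lowest GFP array, and the gene fell by 0.25 ± 0.06 on the log2 scale (adjusted p = 0.0473, and 0.00783 in the block fit). With any 1 of the 8 arrays omitted, it passed 0 times. Those fits called 97 to 481 of all probe sets lower, against 446 with all arrays. At NF32 ndufb8.L read 397.4, 372.6 and 369.2 against 357.0, 281.9 and 313.4 (-0.25 ± 0.10, adjusted p = 0.267). There, too, the groups did not overlap.

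Ndufs3.S, a core subunit of the matrix arm, had nearly the same change at both stages. It read 129.6, 161.5 and 142.0 against 113.7, 100.0 and 106.3 at NF32 (-0.38 ± 0.10, adjusted p = 0.0955). The NF36 readings were 116.6, 151.3, 128.0 and 138.9 against 93.2, 86.4, 109.4 and 105.4 (-0.38 ± 0.09, adjusted p = 0.0543, and 0.0222 in the block fit). No Ptf1a value reached the lowest GFP value at either stage, and GFP replicate 2 was the highest both times.

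The naming rule chose further genes of complex I. Ndufs1.L, which carries iron-sulfur clusters, had changes of -0.26 ± 0.09 and -0.17 ± 0.06, with groups that did not overlap at either stage. Ndufv1.L, the core subunit that binds NADH, had -0.08 ± 0.07 and -0.02 ± 0.06, and its groups overlapped. Ndufb7.L had -0.26 ± 0.09 and -0.16 ± 0.07, and ndufb5.L -0.19 ± 0.08 and -0.14 ± 0.07. Ndufa4.L, named for complex I but assigned in mammals to complex IV, had -0.22 ± 0.09 and -0.15 ± 0.09. Among assembly factors, ndufaf2.L had -0.07 ± 0.17 and -0.15 ± 0.06, ndufaf4.L -0.03 ± 0.16 and -0.20 ± 0.12, and ndufaf7.S -0.04 ± 0.08 and -0.05 ± 0.09. None of these genes passed the threshold in either fit.

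Complex II, succinate dehydrogenase, is also an enzyme of the citric acid cycle. Its 5 measured genes had medians of -0.22 at NF32 and -0.19 at NF36, and all 5 had a change below 0 both times. None passed in the main fit. In the block fit sdhd.S was lower at NF32, and sdha.L, sdha.S, sdhb.S and sdhd.S were lower at NF36. Of all probe sets, that fit called 4.19% lower at NF32 and 10.8% at NF36.

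Sdhd.S, a membrane anchor of the complex, shows how the embryo batches entered. At NF32 it read 187.5, 220.6 and 298.4 in GFP and 147.2, 173.0 and 199.0 in Ptf1a explants, and at NF36 210.4, 310.2, 341.7 and 266.1 against 177.9, 270.8, 298.7 and 227.7. The groups overlapped at both stages, while the Ptf1a member of each of the 7 pairs was the lower one. Its changes were -0.40 ± 0.18 (adjusted p = 0.338) and -0.20 ± 0.18 (adjusted p = 0.662), and in the block fit -0.40 ± 0.07 (adjusted p = 0.0306) and -0.20 ± 0.04 (adjusted p = 0.0134).

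The other copies of complex II varied less between batches. Sdha.L, the flavoprotein that oxidises succinate, had changes of -0.28 ± 0.13 and -0.23 ± 0.06, and its .S copy -0.22 ± 0.07 and -0.15 ± 0.06. Sdha.L at NF36 read 294.6, 325.0, 290.2 and 296.6 against 246.5, 254.6, 275.1 and 245.3, with no overlap (adjusted p = 0.078, and 0.0266 in the block fit). Sdha.S had an adjusted p of 0.159 there and 0.0457 in the block fit. Sdhb.S, the iron-sulfur subunit, had -0.04 ± 0.10 at NF32 and -0.19 ± 0.14 at NF36, where its adjusted p was 0.559 and 0.0474 in the block fit. Sdhd.L had -0.19 ± 0.08 and -0.18 ± 0.10.

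Complex III, the cytochrome bc1 complex, gave 10 genes with medians of -0.17 at NF32 and -0.13 at NF36. At NF32 all 10 had a change below 0, and at NF36 9 did. None passed in the main fit. In the block fit 2 of 10 (20%) were lower at each stage, against 4.19% of all probe sets at NF32 and 10.8% at NF36.

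Uqcrc2.S, a core protein of complex III, had the most negative change of all 87 genes at NF32. It read 251.9, 302.3 and 216.3 in GFP and 203.2, 176.5 and 147.4 in Ptf1a explants (-0.51 ± 0.15, adjusted p = 0.148, and 0.0306 in the block fit). The groups did not overlap there. On the NF36 arrays its readings were 377.4, 346.5, 319.8 and 205.3 against 300.9, 282.9, 340.8 and 213.9 (-0.11 ± 0.20, adjusted p = 0.869). Replicate 4 was the lowest of both groups, and the Ptf1a array was lower in 2 of 4 pairs.

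Cyc1, cytochrome c1, passes electrons on to cytochrome c. Cyc1.S read 304.7, 315.0 and 283.8 against 236.5, 226.8 and 238.5 at NF32, which gave the smallest adjusted p of the 87 genes at that stage (-0.34 ± 0.07, adjusted p = 0.0602, and 0.0378 in the block fit). The groups lay well apart. At NF36 it read 186.5, 252.6, 272.9 and 269.8 against 123.4, 198.0, 281.9 and 224.5 (-0.27 ± 0.22, adjusted p = 0.622), with replicate 1 low in both groups and Ptf1a replicate 3 the highest array of all.

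Cyc1.L read 213.7, 205.8 and 173.7 against 175.1, 154.0 and 169.0 at NF32 (-0.23 ± 0.10, adjusted p = 0.319). Its values at NF36 were 207.0, 168.9, 171.1 and 158.5 against 140.1, 119.9, 154.0 and 134.2 (-0.33 ± 0.10, adjusted p = 0.094, and 0.0214 in the block fit). The groups overlapped at NF32 and not at NF36. Of the rest, uqcrc2.L had changes of -0.24 ± 0.07 and -0.16 ± 0.07, and uqcrfs1.S, the Rieske iron-sulfur protein, -0.05 ± 0.07 and -0.13 ± 0.06 (adjusted p = 0.249 at NF36, and 0.0494 in the block fit). Uqcr10.S, a small subunit, had -0.12 ± 0.11 and 0.01 ± 0.09.

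Cytochrome c itself differed little at NF32. Cycs.S read 1535.3, 1667.5 and 1601.5 in GFP and 1522.8, 1707.0 and 1592.5 in Ptf1a explants, values that interleave, with a change of 0.00 ± 0.08 (adjusted p = 0.986). Later, at NF36, the arrays gave 1218.3, 1297.7, 1248.0 and 1332.1 against 1069.8, 1128.0, 1124.9 and 1203.4. There the highest Ptf1a value was below the lowest GFP value (-0.17 ± 0.06, adjusted p = 0.154, and 0.0249 in the block fit). The test of the difference between stages did not pass for cycs.S, which had the smallest adjusted p of the 87 genes in that test (-0.17 ± 0.09, adjusted p = 0.694).

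Complex IV, cytochrome c oxidase, gave 16 genes with medians of -0.12 at NF32 and -0.11 at NF36. At NF32 15 of them had a change below 0, and at NF36 13 did. The exceptions were cox4i2.L at NF32 (0.01 ± 0.17) and, at NF36, cox5b.2.L (0.02 ± 0.10), cox6a1.S and cox6b1.L (both 0.01). The latter pair was named after its values were seen. Cox4i2.L and cox5b.2.L were among the dimmest of the 87, with GFP means of 8.63 ± 1.24 and 16.7 ± 3.57 at NF36.

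Cox7a2l.L, which in mammals links complexes III and IV into a supercomplex, read 193.9, 209.9 and 206.3 against 150.4, 176.8 and 197.6 at NF32 (-0.21 ± 0.10, adjusted p = 0.407). At NF36 it read 158.2, 207.6, 203.8 and 220.9 against 122.8, 175.0, 176.8 and 163.8 (-0.29 ± 0.13, adjusted p = 0.288, and 0.00999 in the block fit). Groups overlapped at both stages, and the Ptf1a member was the lower one in each of the 7 pairs.

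Cox4i2.S varied more between batches than between groups. It read 130.1, 75.4 and 60.2 in GFP and 152.3, 53.2 and 58.8 in Ptf1a explants at NF32 (-0.07 ± 0.38, adjusted p = 0.955). The NF36 readings were 39.9, 44.1, 32.9 and 67.1 against 30.9, 31.7, 29.3 and 55.2 (-0.23 ± 0.19, adjusted p = 0.626, and 0.0197 in the block fit). Replicate 1 was the highest of both groups at NF32, and replicate 4 at NF36.

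The remaining genes of complex IV that the naming rule chose follow. Cox5a.S, the brightest of the complex, read 1720 ± 89.8 against 1656 ± 16.3 at NF32 and 1455 ± 59.3 against 1352 ± 62.3 at NF36 (-0.05 ± 0.07 and -0.11 ± 0.06). Cox7a2.L had changes of -0.17 ± 0.11 and -0.18 ± 0.06, cox7b.L -0.21 ± 0.09 and -0.13 ± 0.07, and cox6b1.S -0.21 ± 0.10 and -0.12 ± 0.06. At NF32 the groups of cox7b.L and cox6b1.S did not overlap, and at NF36 those of cox7a2.L did not. None of these 4 passed in either fit.

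The ATP synthase gave 20 genes, all with a change below 0 at both stages. The 6 genes of F1, the catalytic head, had medians of -0.19 at NF32 and -0.17 at NF36. The 13 genes of the stalks and the membrane part had -0.19 and -0.13. None of the 20 passed in the main fit, and in the block fit 1 was lower at NF32 and 5 at NF36. The share of all probe sets lower in the block fit was 4.19% at NF32, near that of these 20 genes, and 10.8% at NF36.

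Atp5f1a.L, the alpha subunit of F1, read 1302.6, 1395.6 and 1328.1 in GFP and 1063.3, 1127.7 and 1057.2 in Ptf1a explants at NF32. Its groups were far apart (-0.31 ± 0.07, adjusted p = 0.0766, and 0.0345 in the block fit). On the NF36 arrays its readings were 1188.8, 1245.3, 1262.7 and 1238.2 against 1027.7, 1039.2, 1192.1 and 1065.9. Only Ptf1a replicate 3 reached into the GFP range (-0.19 ± 0.06, adjusted p = 0.134, and 0.0287 in the block fit). The .S copy had changes of -0.15 ± 0.08 and -0.17 ± 0.07, atp5f1b.S -0.10 ± 0.07 and -0.08 ± 0.05, and atp5f1d.L, of the central stalk, -0.27 ± 0.10 and -0.13 ± 0.10.

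In the peripheral stalk, which holds the head still, atp5pb.L read 561.6, 661.8 and 544.6 against 519.1, 470.5 and 469.1 at NF32 (-0.27 ± 0.10, adjusted p = 0.233). At NF36 it read 582.0, 600.3, 542.2 and 603.5 against 449.5, 525.6, 479.5 and 516.2 (-0.23 ± 0.07, adjusted p = 0.0934, and 0.0169 in the block fit). Neither stage showed overlap. Atp5pf.S had changes of -0.24 ± 0.08 and -0.21 ± 0.06 (adjusted p = 0.0942 at NF36, and 0.0337 in the block fit), also without overlap. Atp5pb.S had -0.23 ± 0.08 and -0.21 ± 0.11, and atp5pd.L -0.34 ± 0.10 and -0.13 ± 0.06.

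Of the rotor ring genes, atp5mc3.S, the brightest of the membrane part, had -0.08 ± 0.07 and -0.07 ± 0.07, and atp5mc1.S -0.30 ± 0.11 and -0.11 ± 0.07. Atp5if1.L encodes the inhibitor that stops the enzyme from running backwards and using up ATP. It read 94.6, 137.6 and 119.2 against 83.2, 86.3 and 90.7 at NF32 (-0.36 ± 0.12, adjusted p = 0.208). Its values at NF36 were 121.2, 124.1, 93.7 and 117.3 against 93.7, 98.9, 98.5 and 100.8 (-0.18 ± 0.08, adjusted p = 0.276). The groups overlapped only at NF36, where GFP replicate 3 was as low as the lowest Ptf1a array.

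**Figure D3:**
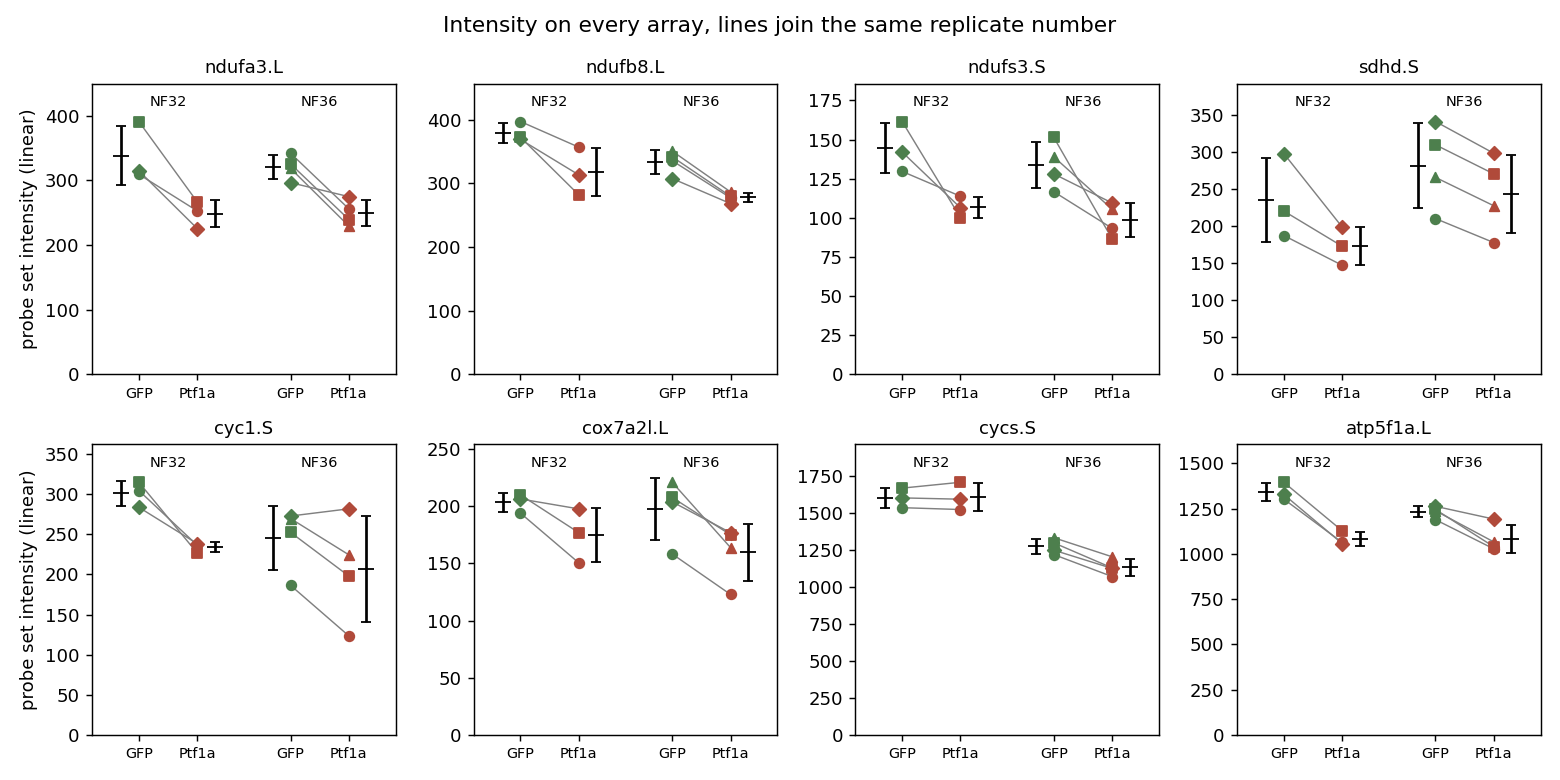
Probe set intensity (linear, vertical axes from 0) of 8 genes on every array at NF32 and NF36, GFP in green and Ptf1a in red. Circles, squares, diamonds and triangles are replicates 1 to 4, lines join samples of the same embryo batch, and black bars beside the points are mean ± SD (n = 3 per group at NF32, 4 at NF36). Lines of sdhd.S all fall although its groups overlap. They run nearly parallel at NF36, while at NF32 that of replicate 3 is the steepest. Lines of cycs.S are nearly level at NF32.

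Some genes were lower in the block fit at both stages. Those of NF32 were ndufa3.L, ndufs7.L, sdhd.S, uqcrc2.S, cyc1.S and atp5f1a.L, of which ndufs7.L, an iron-sulfur subunit of the complex I core, was named after its values were seen (-0.27 ± 0.09 at NF32, adjusted p = 0.2, and 0.0478 in the block fit). Ndufa3.L, ndufs7.L, sdhd.S and atp5f1a.L were lower at NF36 as well. These 4 genes are 66.7% of the 6 of NF32 and 19.0% of the 21 of NF36. The block fit called 10.8% of all probe sets lower at NF36. The overlap between stages over all probe sets is not given here, so these shares have no comparison.

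No gene of the respiratory chain passed the test of a difference between the stages, in which 115 of 9139 genes (1.26%) did. Of the 87, 0 had an unadjusted p under 0.05 in that test, where 813 of the 9139 did. This does not show that the effects were equal. The stages shared no arrays, and 81 of the 87 genes had a change below 0 at both. With 85 genes below 0 at NF32 and 83 at NF36, no smaller overlap was possible. That count therefore does not show agreement gene by gene. Across the 87 genes the changes at NF32 and NF36 had Pearson's r of 0.47 and Spearman's rho of 0.45, given as a description, since the genes share arrays. The median difference, NF36 minus NF32, was 0.03. The most positive were those of uqcrc2.S (0.40 ± 0.28), cox5b.2.L (0.26 ± 0.20), atp5pd.L (0.21 ± 0.12), sdhd.S (0.20 ± 0.28) and atp5mc1.S (0.19 ± 0.13).

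**Figure D4:**
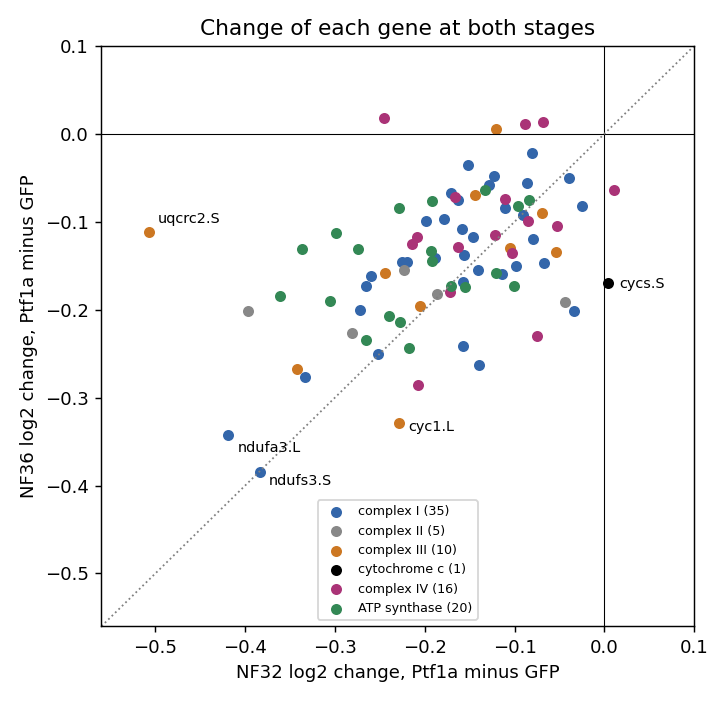
Log2 change (Ptf1a minus GFP) of each of the 87 genes at NF32 (horizontal axis) and NF36 (vertical axis), coloured by complex with the number of genes in brackets. The dotted line marks equal change. Most genes, 81 of 87, lie below 0 on both axes, the fewest that the counts below 0 at each stage allow. Uqcrc2.S lies farthest from the dotted line.

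Both copies of a gene mostly had a change below 0, as most of the 87 genes did. There were 24 genes with a measured .L and .S copy, and both copies had a change below 0 in 23 of them at NF32 and 22 at NF36. With 85 and 83 of the 87 genes below 0 at these stages, such counts do not show that copies move together. The median absolute difference between copies was 0.10 and 0.07. It was largest for uqcrc2 at NF32 (.L minus .S 0.26 ± 0.17) and ndufs3 at NF36 (0.24 ± 0.13). Whether a probe set reads 1 copy alone was not tested. For the 13 genes with further probe sets, 15 of the 16 dimmer probe sets had a change below 0 at NF32 and 14 at NF36, and 0 passed the threshold.

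Brightness was looked at because bright probe sets could shift together. Of the 87 genes, 74 at NF32 and 75 at NF36 fell in the brightest of 5 equal groups of probe sets. That group as a whole had a median change of -0.02 at both stages, with 56.9% and 54.4% of its probe sets below 0. With a normalization that follows brightness, the median of the 87 genes was -0.14 at NF32 and -0.11 at NF36, and 0 genes were called at either stage.

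Other nuclear genes of mitochondria were set beside the chain. Of all probe sets, the main fit called 1.2% lower and 1.96% higher at NF32, and 1.89% lower and 3.59% higher at NF36. The block fit called 4.19% lower and 5.03% higher at NF32, and 10.8% lower and 12.6% higher at NF36. The 24 respiratory chain assembly factors that the symbol rule leaves out had medians of -0.17 and -0.16, with 22 and 19 genes below 0. None was called at NF32, and at NF36 1 was lower, ecsit.S, which helps to assemble complex I (55.7 ± 2.6 against 43.1 ± 1.7, -0.28 ± 0.05, adjusted p = 0.0266). The block fit called 1 lower at NF32 and 7 at NF36. Mitochondrial ribosomal proteins make the subunits encoded in mitochondrial DNA. Of these, 49 of 50 genes had a change below 0 at NF32 and 50 of 51 at NF36, with medians of -0.14 and -0.16. Mrps2.L was the 1 gene of this list called in the main fit (lower at NF36, -0.25 ± 0.06, adjusted p = 0.0487), a share near that of all probe sets. The block fit called 5 lower at NF32 and 20 at NF36.

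Genes of protein import and mitochondrial chaperones had medians of -0.17 and -0.21, with 32 and 33 of 34 below 0. Timm44.S, which ties the import motor to the inner membrane, was lower at NF36 (257.9 ± 14.7 against 190.9 ± 21.1, -0.41 ± 0.08, adjusted p = 0.0304). The block fit called 6 of the 34 lower at NF32, among them the chaperonin gene hspd1.S (-0.37 ± 0.08, adjusted p = 0.0559, and 0.0353 in the block fit), and 19 at NF36. The lists above stood near the respiratory genes in median change at both stages.

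Several smaller lists had medians nearer to 0. Genes that keep and transcribe mitochondrial DNA had medians of -0.03 and -0.11 (9 genes, 0 called, and in the block fit 0 at NF32 and 3 lower at NF36), and polrmt.L, the mitochondrial RNA polymerase, had -0.25 ± 0.07 at NF36 (adjusted p = 0.062, and 0.0176 in the block fit). Nuclear regulators of respiratory genes had -0.05 at both stages (8 genes, 0 called, and in the block fit 1 lower at NF32 and 2 at NF36). Among them esrra.L, a nuclear receptor that in mammals activates respiratory genes, read 338.5 ± 28.2 against 248.2 ± 36.9 at NF32 (-0.43 ± 0.12, adjusted p = 0.123, and 0.0449 in the block fit). Later, at NF36, the arrays gave 187.5 ± 22.4 against 154.0 ± 11.6 (-0.26 ± 0.09, adjusted p = 0.166, and 0.0385 in the block fit). Carriers of the mitochondrial membranes had -0.10 and -0.08 (9 genes, 0 called, and in the block fit 1 lower at NF32 and 0 at NF36), and mpc2.S, of the pyruvate carrier, had -0.29 ± 0.13 at NF32 (adjusted p = 0.353, and 0.04 in the block fit).

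Some mitochondrial genes outside the chain rose. Coq10b.L, which helps coenzyme Q to work in the chain, rose from 31.3 ± 4.3 to 68.3 ± 14.2 at NF32 (0.82 ± 0.13, adjusted p = 0.026) and from 36.8 ± 5.5 to 74.8 ± 17.7 at NF36 (0.77 ± 0.14, adjusted p = 0.0195). It was the 1 coenzyme Q gene called in the main fit, of 11 at NF32 and 12 at NF36, and the list medians were -0.04 and -0.07. In the block fit 1 of the list was higher at NF32, and 2 were higher and 3 lower at NF36. Ucp2.L, an inner membrane carrier of the uncoupling protein family, rose from 593.3 ± 44.4 to 867.2 ± 93.6 at NF36 (0.53 ± 0.09, adjusted p = 0.0164). In the same list of oxidant defence and uncoupling genes, the mitochondrial peroxide remover prdx3.S fell from 79.3 ± 13.6 to 44.3 ± 1.4 at NF32 (-0.65 ± 0.11, adjusted p = 0.0298). That list had medians of -0.31 over 12 genes at NF32 and -0.05 over 14 at NF36. The block fit called 3 of them lower at NF32, and 3 higher and 3 lower at NF36.

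**Figure D5:**
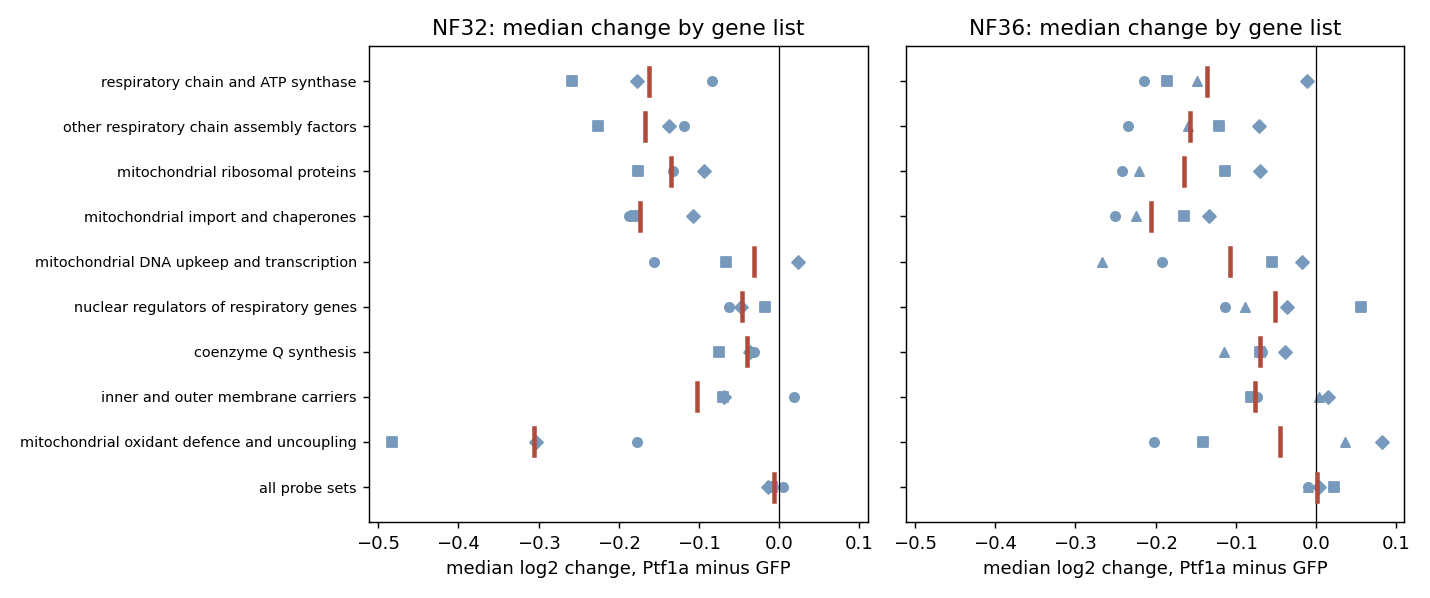
Median log2 change (Ptf1a minus GFP, horizontal axis) of the respiratory chain and ATP synthase genes, 8 other lists of mitochondrial genes and all probe sets at NF32 and NF36. Red bars are medians of the fitted changes, and circles, squares, diamonds and triangles are the medians within embryo batches 1 to 4. Respiratory genes, assembly factors, ribosomal proteins and import genes have medians between -0.21 and -0.14, and all probe sets lie near 0.

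Markers of other cell types differed between the groups as well, and their part in the respiratory gene values was not tested. Counts of the block fit follow each count of the main fit. For comparison, the main fit called 1.2% of all probe sets lower and 1.96% higher at NF32. At NF36 it called 1.89% lower and 3.59% higher. The block fit called 4.19% lower and 5.03% higher at NF32, and 10.8% and 12.6% at NF36. At NF32 11 of 15 heart muscle genes were lower (11 in the block fit, median -0.96, summed intensity 3494.5 to 3880.7 in GFP and 2592.2 to 3389.2 in Ptf1a explants). Of the 15, 14 had a change below 0. The exception, actc1.L, named after its values were seen, makes up much of these sums. It read 1209 ± 179 in GFP and 2071 ± 497 in Ptf1a explants (0.75 ± 0.18, adjusted p = 0.0877). In the blood cell list 10 of 14 were lower (11 in the block fit, median -1.81, summed intensity 3455.7 to 5941.3 and 377.5 to 809.4), and 13 of 18 neuron genes were higher (15 in the block fit, median 1.35, summed intensity 403.9 to 521.9 and 2218 to 2510.8). Of 17 skeletal muscle genes 0 were called (3 higher in the block fit, median 1.86, summed intensity 573.1 to 4439.2 and 5254 to 11510.3). Endoderm markers were lower for 2 of 18, foxa1.L and gata6.L, and for 7 in the block fit. They summed to 2772.3 to 2868.4 in GFP and 2181.8 to 2507.9 in Ptf1a explants. Their median was -0.15, with 14 of 18 below 0.

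At NF36 heart muscle genes had 0 of 15 called (1 higher in the block fit) and a median of 0.80 (summed intensity 770.1 to 3221.8 in GFP and 2568.2 to 4628.3 in Ptf1a explants). Blood cell genes were lower for 4 of 16 (13 lower and 1 higher in the block fit, median -0.80, summed intensity 2277.3 to 5302.6 and 713.8 to 2867.1). Neuron genes were higher for 4 of 18 (9 in the block fit, median 0.42, summed intensity 219.8 to 293.7 and 390.9 to 792.4). Epidermis genes were higher for 10 of 16 (16 in the block fit, median 0.95, summed intensity 3462.4 to 5211.5 and 7720 to 9483.2), as were 4 of 10 genes of ionocytes, skin cells rich in mitochondria (5 higher and 1 lower in the block fit, median 0.62, summed intensity 925.5 to 1267.1 and 950.9 to 1360.8). In skeletal muscle genes 2 of 19 were lower, both copies of myog (3 lower and 1 higher in the block fit), while the median was 0.50 (summed intensity 885.7 to 1335.8 and 1011.6 to 4466.6). Endoderm markers had gata4.S higher and hnf4a.S lower of 18 (1 higher and 8 lower in the block fit). Their median was -0.09, and their summed intensity 2650 to 2983 in GFP and 2461.4 to 2746.1 in Ptf1a explants. Liver genes had f2.L lower of 18 (9 lower in the block fit). Their median was -0.36, and their summed intensity 22077.5 to 25217 in GFP and 16701.4 to 23225.8 in Ptf1a explants.

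The remaining lists at NF32 were those of liver, epidermis and ionocytes. Liver markers had 0 of 17 called (6 lower in the block fit, median -0.57). In both fits 1 of 17 epidermis markers was higher, krt70.L (median 0.09), and 0 of 10 ionocyte markers were called (median -0.14). Summed intensity of the epidermis markers was 17557.4 to 19247 in GFP and 18682.3 to 20668.4 in Ptf1a explants. For liver markers it was 9071.9 to 14801.1 and 8270.7 to 9761.8, and for ionocyte markers 2258.4 to 3704 and 2029.7 to 3447.2.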

How the data were processed

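Total RNA of pooled anterior endoderm explants was measured on 14 Affymetrix 3' arrays. The authors' deposited values are linear intensity values, 1 per probe set and array. The submitters' processing notes list PLIER, which summarises each probe set as 1 value, without version or role, and no source used here gives the scaling. Per the design text NF36 was run on an earlier chip, yet the identifiers of both stages are of 1 chip. No columns were left out.

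Groups and replicate numbers were taken from the sample labels. Genes were named from the platform annotation, through probe sets with exactly 1 symbol, and no chromosome positions or sequences were used. Roles of genes, the lists of other genes and the symbol rule were chosen with earlier results of these data known. The 22855 probe sets of NF32 and 23614 of NF36 were each fitted as log2(intensity + 16) with limma 3.58.1 in R 4.3.3 (lmFit, eBayes, 2-sided), without further normalization, filter or covariates. P-values were adjusted by Benjamini-Hochberg within a stage, with a threshold of 0.05. The difference between stages was a contrast over 9139 genes measured at both. The number of arrays limits the precision. The main fits and the contrast between stages were tested on simulated data. The changes planted there were larger than that of any respiratory gene. The simulation held no embryo batches, and the block fit was not tested on it.

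Same-numbered samples share a batch of embryos, per the series description. As a check, departures from the group means were correlated between partners across probe sets, and r was 0.711, 0.297 and 0.416 at NF32 and 0.765, 0.670, 0.717 and 0.639 at NF36. The highest r with a sample of another number was -0.225, 0.257 and 0.257 at NF32, so replicate 2 was hardly set apart. At NF36 it was -0.168, 0.022, 0.022 and -0.133. The main fit has no pair term, and the block fit is printed where it changes a call. Replicates are called biological in the labels.

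Genes were named by rule: those past the threshold, the 2 with the smallest p and the brightest of each role and stage, the 6 largest differences between stages, cyc1, cycs, all sdh genes, cox4i2 and atp5if1, and of each other list up to 4 genes past the threshold or the 1 with the smallest p. Exceptions are marked. Of these, list genes are named only where the text turns on them. Alternatives were other offsets (1 and 64), normalization by quantiles or by centring on medians, a filter at the 40th percentile of brightness, a replicate block, trend and robust options of eBayes, averaging the probe sets of a gene, and omission of each array. Cyclic loess and leaving out pair 3 of NF36 were added after seeing the data.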

Additional observations from a re-analysis of the deposited data

Results flagged for a closer look

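For each gene named by the rule, the 4 arrays of each NF36 group were tested for 1 array apart from the other 3, by Dixon's gap over range. It marked 6 of 84 groups (7.14%), where chance marks about 1 in 20. Atp5pf.S was marked in both groups, with GFP replicate 3 at 681.5 against 768.1 to 772.7 on the other GFP arrays, and Ptf1a replicate 1 at 619.2 against 652.1 to 656.5. Atp5f1d.L read 444.7 on Ptf1a replicate 1 and 545.2 to 556.1 on the other Ptf1a arrays. Uqcrfs1.S read 688 on GFP replicate 1 and 738.4 to 742.3 on the others. Cox7b.L read 792 on Ptf1a replicate 3, above the 669.9 to 689.1 of the others. Cox4i2.S read 55.2 on Ptf1a replicate 4 against 29.3 to 31.7, and its partner GFP replicate 4 was the highest GFP array too, at 67.1.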

How the results depend on the processing

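At NF32 the count of lower respiratory genes moved from 0 to 2 with an offset of 64, to 6 with the replicate block and to 1 with trend and robust settings. It was 0 in the 5 other planned settings, with cyclic loess and in the 6 fits without 1 array. At NF36 it moved from 2 to 0 with an offset of 1 and with cyclic loess, to 4 with an offset of 64, to 21 with the replicate block, and to 1 with quantile normalization, without dim probe sets, with trend and robust settings and without pair 3. It was 3 with median centring and with the mean over probe sets, and 0 to 1 in the 8 fits without 1 array. The causes were not tested, beyond the fewer arrays in the latter. Lower calls over all probe sets moved too. At NF32 they were 274 in the main fit, 194 with offset 64, 958 with the block and 275 with trend and robust settings. In the 6 fits without 1 array they were 73 to 236. At NF36 they were 446 in the main fit, 412 with offset 1, 390 with offset 64 and 2554 with the block. There cyclic loess gave 405, quantile normalization 503, median centring 540, and trend and robust settings 435. Omitting pair 3 gave 216, omitting dim probe sets 298, and the mean over probe sets 421. In the 8 fits without 1 array of NF36 lower calls were 97 to 481. No setting called a respiratory gene higher, and none called a respiratory gene different between stages. For that difference the replicate block called 403 of 9139 genes more positive at NF36 and 165 more negative, where the main fit called 115. The median change stayed between -0.21 and -0.12 at NF32 and between -0.17 and -0.11 at NF36 in the fits without 1 array. In the other settings it was -0.17 to -0.14 at NF32, and -0.16 to -0.11 at NF36, or -0.18 without pair 3.

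Of 1382 values of single genes under the alternatives, 1300 kept their direction and side of the threshold, 24 newly passed (18 of them with the replicate block), 23 no longer passed and 35 changed sign. The sign changes concern 10 values, none of which passed the threshold under any setting. Leaving out 1 array gave ranges at NF32 of -0.14 to 0.14 for cox4i2.L, -0.48 to 0.19 for cox4i2.S, -0.039 to 0.042 for cycs.S, -0.13 to 0.11 for ndufaf4.L, -0.23 to 0.056 for ndufaf2.L and -0.091 to 0.048 for sdhb.S. At NF36 they were -0.042 to 0.086 for cox5b.2.L, -0.077 to 0.051 for uqcr10.S, -0.046 to 0.017 for ndufv1.L and -0.29 to 0.011 for uqcrc2.S. Quantile normalization gave -0.0498 for cox4i2.L at NF32, and cyclic loess gave -0.039 for cox4i2.L, -0.013 for cycs.S at NF32 and 0.0022 for ndufaf4.L at NF32. The change of cox5b.2.L at NF36 was -0.013 with quantile normalization, -0.00647 with median centring, -0.00083 with cyclic loess and -0.10 without pair 3. That of uqcr10.S at NF36 was -0.019 with median centring, -0.017 with the mean over probe sets and -0.042 without pair 3, and that of ndufv1.L at NF36 was 0.0029 with cyclic loess. A probe set as dim as cox4i2.L (GFP mean 8.63 at NF36) lies under the offset of 16, which shrinks its change.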
